A study of Mus musculus with 8 samples.

Results

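Transcripts of the mitotic machinery were compared between normal mouse tongue and tongue squamous cell carcinoma. The set was defined by name and function, as 52 genes of mitotic entry, spindle checkpoint, kinetochore, spindle, condensin and cytokinesis. The rule itself uses no measured value, but the set was drawn up with earlier results of these data known, so its choice was not independent of them. Of the 52 names, 51 matched a gene symbol among the 23235 rows of the authors' deposited table. The remaining one, Bora, is listed there under the older symbol 6720463M24Rik, was matched by its RefSeq accession and is reported apart. RNA came from 8 female C57BL/6 tongue samples. The 5 normal tongues had received no 4-nitroquinoline 1-oxide (4-NQO), a DNA-adduct-forming carcinogen that is given to rodents to induce oral cancer, and the 3 carcinomas had been induced with it. Dose, duration and age are not in the labels. Nothing there ties a sample to an animal of its own, and the deposited p-values may therefore reflect a spread that is partly technical.

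Entry into mitosis is driven by the kinase Cdk1 bound to A- and B-type cyclins, switched on by Cdc25 phosphatases and amplified by Aurora and Polo-like kinases. Condensin then compacts chromosomes, kinetochores assemble on centromeric chromatin and bind spindle microtubules, and the spindle checkpoint withholds Cdc20 from the anaphase-promoting complex until every chromosome is attached. Securin and cyclin B are then degraded, separase opens the cohesin ring, and the central spindle and an actomyosin ring divide the cell. Many of these genes are transcribed mainly in the G2 phase and in mitosis. They are controlled by repressor and activator complexes that share the MuvB core, with B-Myb and FoxM1 in the activator forms. In stratified epithelium such as that of the tongue, dividing cells normally lie in the basal and adjacent layers.

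All levels below are FPKM (read fragments per unit of transcript length and of library size) and, like the fold changes and q-values, come from the authors' deposited table. It holds a single value per gene and group, so the spread between samples and any overlap of the groups cannot be seen, and the depth of the libraries is unknown. A ± value is the standard error of the log2 fold change, carcinoma over normal, implied by the authors' test statistic. A pair of values in parentheses after a gene is that log2 fold change with its standard error, followed by the authors' q. Genes are described as called at a deposited q under 0.05. All 51 rows had been tested by the authors, among 15783 tested rows in total. In bulk tissue a larger share of dividing cells and more RNA per dividing cell cannot be told apart.

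Mitotic transcripts were higher in the carcinomas across every functional group. In the authors' deposited table, 42 of the 51 genes rose, 0 fell and 9 did not pass, while 3.07% of all tested genes were called higher and 3.19% lower. Among the 51, the number with a negative fold change was also 0 at an unadjusted p under 0.05 and 0 with the Benjamini-Hochberg adjustment. All but 1 of the 51 fold changes were positive, with a median log2 fold change of 2.49, while the median of every tested gene with a finite fold was −0.04. At least a 2-fold higher level was listed for 48 genes, at least 4-fold for 39 and at least 8-fold for 9. The share of all tested genes at such a fold size was taken only together with a call, as given below. Under a stricter limit of q under 0.01, 31 of the 51 were called higher, against 1.96% of tested genes. With the Benjamini-Hochberg adjustment of the deposited p-values over all tested rows, the count was 45, against 3.98%. When a call also had to be at least 4-fold, 37 qualified, against 2.48%. Bora, a cofactor that helps Aurora A activate Plk1, also rose, from 0.807 to 4.72 FPKM (2.55 ± 0.64, q = 0.00433).

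The levels of these genes were low in normal tongue and moderate in the tumours. The authors' deposited table lists 16 of the 51 genes under 1 FPKM in normal tongue and 0 in carcinomas. The median of the 51 levels was 1.49 FPKM in normal tongue and 7.04 FPKM in carcinomas. In rank the set went from percentile 23.1 to percentile 55.8, taken as the median percentile of the members among tested genes. The order of the genes was largely the same in the 2 groups, with a Spearman correlation of 0.90 between their 51 levels, a description across genes measured in the same libraries. Summed over the 50 genes other than Pttg1, the level went from 115 to 541 FPKM, 4.69-fold. With Pttg1 the sum went from 211 to 590.4 FPKM, 2.80-fold, since that gene alone made up a large part of the normal total.

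**Figure D1:**
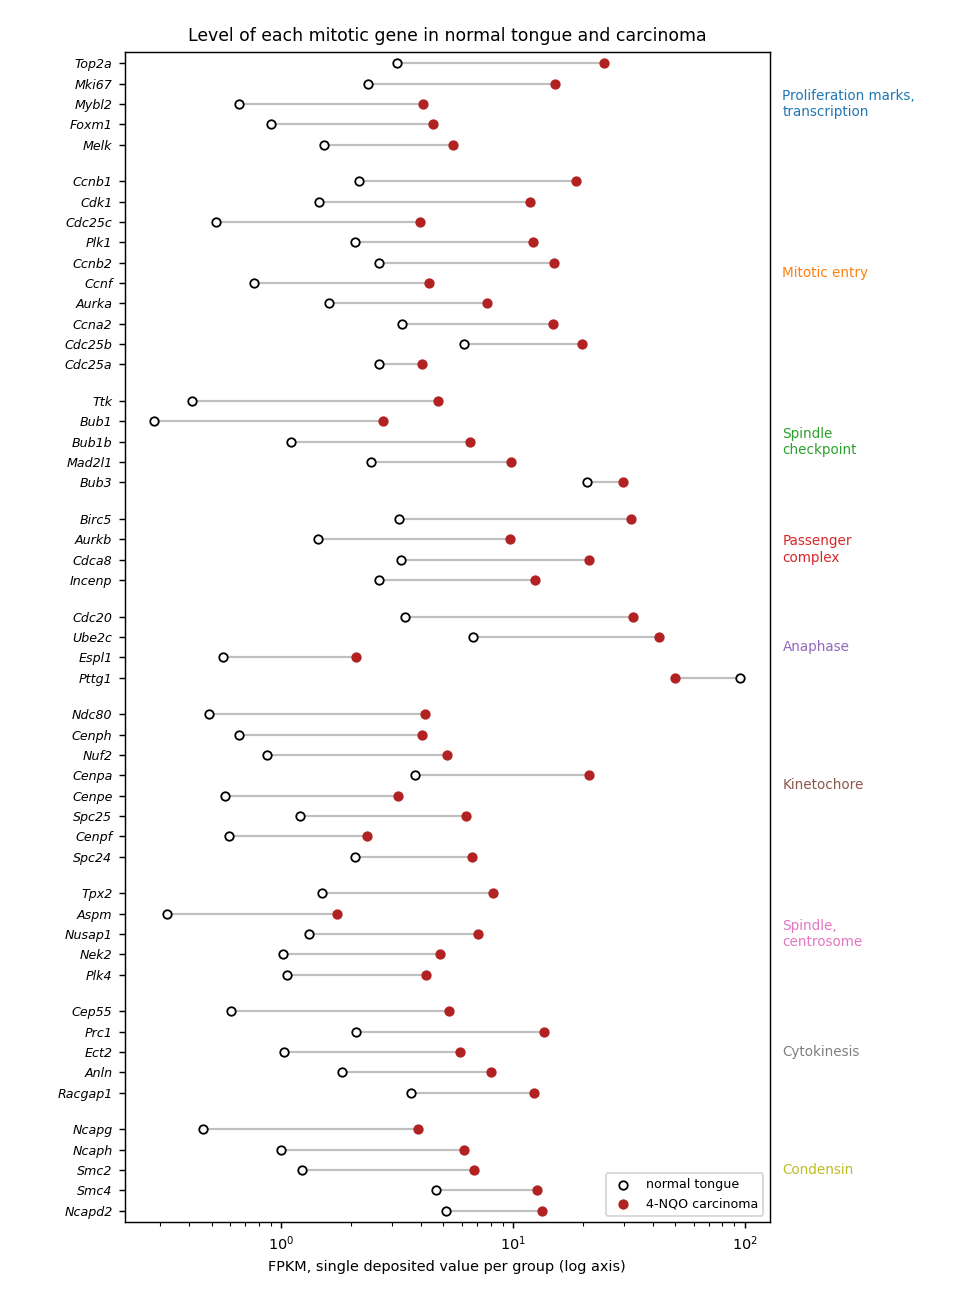
Level of each of the 51 genes in FPKM on a log axis, as the single deposited value of normal tongue (open circles) and of 4-NQO carcinoma (filled circles), grouped by function. Every gene is higher in carcinomas except Pttg1, at 95.5 in normal tongue and 49.7 in carcinomas.

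**Figure D2:**
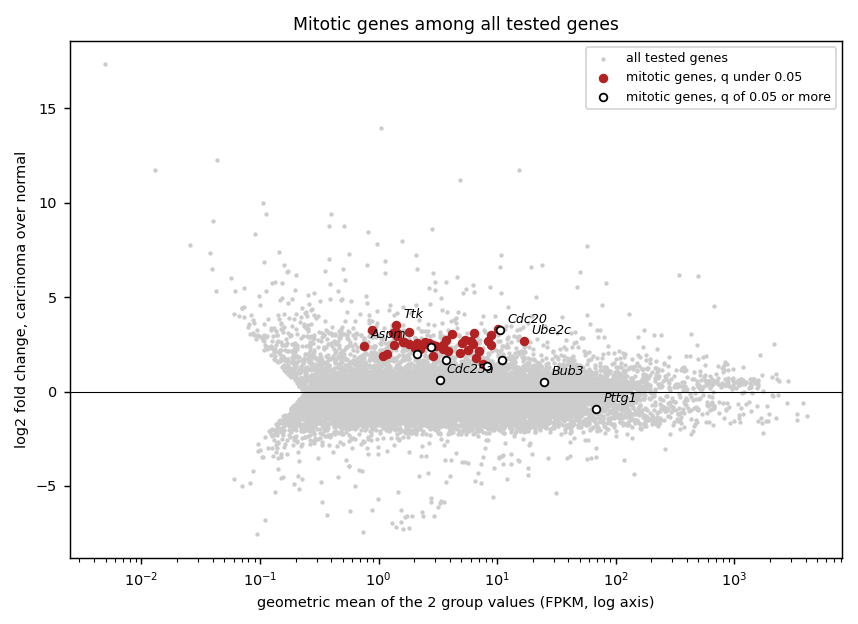
Log2 fold change against the geometric mean of both group values for all tested genes with a finite fold (grey) and for the 51 mitotic genes (filled where q is under 0.05, open otherwise). The called mitotic genes form a band between log2 fold changes of 1.45 and 3.52.

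Most of the available proximal promoters of these genes hold short sequence elements described below. The promoters are shown here because most of the genes were called higher. A link between the elements and the fold changes was not tested. RefSeq promoter windows of the build GRCm38.p6, from 250 bases before to 50 bases after each transcription start, were available for 43 of the 52 genes, 4 of them with 2 windows. They were searched on both strands for the cell cycle genes homology region (CHR), spelled TTTGAA or TTCGAA, and for the CCAAT box that NF-Y binds. The CHR is the element through which the MuvB complexes are known to contact genes of G2 and mitosis, and it was described from genes of this kind, so finding it here is a description. For each function, the gene of lowest deposited q with a window is printed below from 170 bases before to 30 bases after its start, 5′ to 3′ on its own strand, with matches in capitals, followed by Pttg1, the gene with a negative fold change. The CHR match of Smc2 nearest its start runs past the printed stretch and is not capitalised. The windows lie at Top2a chr11:99024160-99024359 (minus strand), Ccnb1 chr13:100786457-100786656 (minus strand), Ttk chr9:83834519-83834718 (plus strand), Cdca8 chr4:124936888-124937087 (minus strand), Aspm chr1:139454603-139454802 (plus strand), Ube2c chr2:164769759-164769958 (plus strand), Cenpe chr3:135212393-135212592 (plus strand), Prc1 chr7:80294281-80294480 (plus strand), Smc2 chr4:52439051-52439250 (plus strand) and Pttg1 chr11:43425952-43426151 (minus strand).
Top2a: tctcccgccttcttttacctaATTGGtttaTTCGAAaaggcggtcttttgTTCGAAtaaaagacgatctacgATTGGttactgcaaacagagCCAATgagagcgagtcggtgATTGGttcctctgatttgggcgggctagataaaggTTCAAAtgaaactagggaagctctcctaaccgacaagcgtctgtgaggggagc
Ccnb1: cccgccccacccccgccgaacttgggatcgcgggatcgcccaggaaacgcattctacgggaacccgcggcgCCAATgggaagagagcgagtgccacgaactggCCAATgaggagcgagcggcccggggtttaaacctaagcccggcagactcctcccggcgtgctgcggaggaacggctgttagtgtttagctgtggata
Ttk: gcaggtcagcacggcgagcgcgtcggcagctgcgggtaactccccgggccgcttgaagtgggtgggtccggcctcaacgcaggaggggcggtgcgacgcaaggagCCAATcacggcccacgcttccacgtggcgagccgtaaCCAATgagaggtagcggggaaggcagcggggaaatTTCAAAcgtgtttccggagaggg
Cdca8: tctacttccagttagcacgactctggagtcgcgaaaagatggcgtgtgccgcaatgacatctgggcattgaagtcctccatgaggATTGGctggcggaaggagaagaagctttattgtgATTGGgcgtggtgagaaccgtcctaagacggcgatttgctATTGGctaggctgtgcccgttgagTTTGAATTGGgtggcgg
Aspm: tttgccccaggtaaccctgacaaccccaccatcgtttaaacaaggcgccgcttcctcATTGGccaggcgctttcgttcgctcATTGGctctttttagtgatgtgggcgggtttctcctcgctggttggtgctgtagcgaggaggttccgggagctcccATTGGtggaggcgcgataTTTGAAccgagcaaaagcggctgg
Ube2c: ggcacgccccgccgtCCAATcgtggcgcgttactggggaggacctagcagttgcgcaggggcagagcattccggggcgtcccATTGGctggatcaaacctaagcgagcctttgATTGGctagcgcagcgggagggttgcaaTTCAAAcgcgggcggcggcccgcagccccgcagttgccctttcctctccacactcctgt
Cenpe: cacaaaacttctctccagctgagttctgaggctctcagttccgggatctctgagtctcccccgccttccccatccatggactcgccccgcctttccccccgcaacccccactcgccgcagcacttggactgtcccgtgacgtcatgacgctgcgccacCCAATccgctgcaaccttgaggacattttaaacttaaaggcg
Prc1: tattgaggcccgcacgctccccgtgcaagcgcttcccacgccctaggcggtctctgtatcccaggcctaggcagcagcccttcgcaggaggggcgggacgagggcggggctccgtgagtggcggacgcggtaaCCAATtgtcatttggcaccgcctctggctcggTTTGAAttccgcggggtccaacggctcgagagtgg
Smc2: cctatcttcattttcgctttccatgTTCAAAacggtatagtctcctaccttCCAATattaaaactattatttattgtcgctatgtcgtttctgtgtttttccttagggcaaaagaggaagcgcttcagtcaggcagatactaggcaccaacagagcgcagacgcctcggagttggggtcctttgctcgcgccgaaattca
Pttg1: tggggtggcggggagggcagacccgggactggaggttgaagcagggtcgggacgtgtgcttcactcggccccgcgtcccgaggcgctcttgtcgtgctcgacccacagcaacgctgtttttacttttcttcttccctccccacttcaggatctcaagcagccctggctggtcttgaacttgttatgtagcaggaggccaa

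A CHR match was present in 29 of the 43 promoters (67.4%), compared with 16.7% of the 10922 genes tested in the expression table that have a window and 21.7% of all 27025 genes with one. A CCAAT box was present in 31 of 43 (72.1%), compared with 42.3% of tested genes and 41.1% of all genes. Both were found together in 26 (60.5%), compared with 6.80% and 8.61%. Mean GC content was 59.3% in the windows of the mitotic genes, 59.7% in those of tested genes and lower, at 53.8%, in those of all genes. In Cdca8 one CHR match overlaps a CCAAT match on the other strand, the single such overlap in these windows. TTCGAA reads the same on both strands and was counted once, while CCAAT matches on opposite strands were counted apart even where they overlap, as a pair in Ube2c does.

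The CHR matches of the mitotic genes lay close to the start site. A match between 60 bases before and 50 bases after the start was present in 27 of 43 (62.8%), compared with 4.82% of tested genes. CCAAT boxes were most frequent between 75 and 50 bases before the start, in 30.2% of the mitotic genes and 9.25% of tested genes. In all, 21 promoters held 2 or more (48.8%, compared with 15.5%). Among the genes not called in expression, 5 of 8 with a window had a CHR match, beside 24 of 35 among those that rose. Birc5, Mad2l1, Melk, Mybl2, Ncaph, Nuf2, Nusap1, Plk4 and Pttg1 had neither element in the window. Bub3, Cdc20, Cdc25b, Ncapd2 and Spc25, which were not called, had both. For the DNA replication genes described further on, 6 of 27 promoters had a CHR match (22.2%) and 17 a CCAAT box (63.0%).

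**Figure D3:**
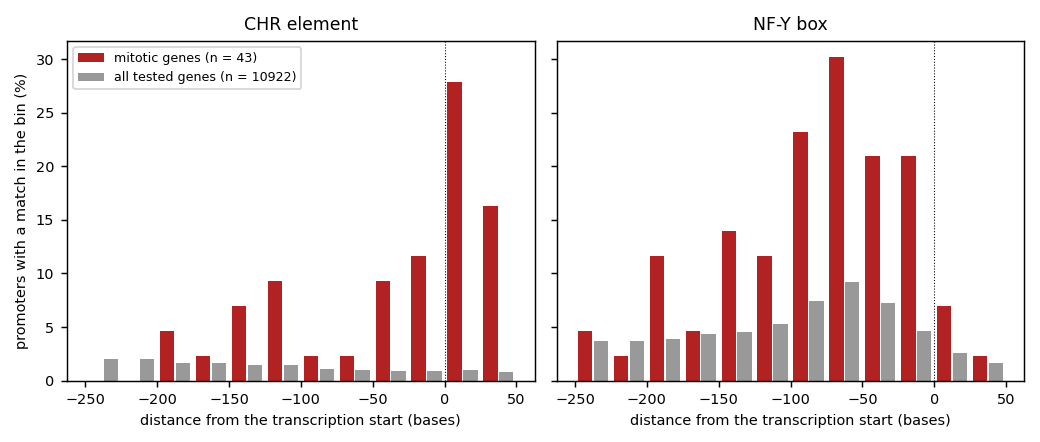
Percentage of promoters with a match to the CHR element (left) and to the NF-Y box (right) in bins of 25 bases by distance from the transcription start, for 43 mitotic genes (dark) and 10922 tested genes (grey), 1 window per gene. In the first 25 bases after the start, 27.9% of the mitotic genes and 0.989% of tested genes have a CHR match.

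The group of proliferation marks and transcription factors held Mki67, Top2a, Mybl2, Foxm1 and Melk, and all 5 rose. The MuvB subunits of the G2 programme are in another list, described further on, and were not called. Mki67 encodes the Ki-67 protein that coats mitotic chromosomes and is the standard histological mark of cycling cells, and it went from 2.37 to 15.1 FPKM (2.68 ± 0.53, q = 6.68e-05) in the authors' deposited table. Top2a, the topoisomerase that untangles sister DNA, had a similar course, from 3.14 to 24.7 FPKM (2.97 ± 0.54, q = 6.29e-06). The transcription factors Mybl2 (B-Myb) and Foxm1 stood below 1 FPKM in normal tongue and above 4 in carcinomas. Mybl2 went from 0.660 to 4.10 FPKM, 6.21-fold (2.63 ± 0.62, q = 0.00159), and Foxm1 from 0.902 to 4.53 FPKM, 5.02-fold (2.33 ± 0.56, q = 0.00258). Melk, a kinase abundant in dividing cells, showed the smallest rise of the 5 at 1.86 ± 0.56 (q = 0.0381).

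**Figure D4:**
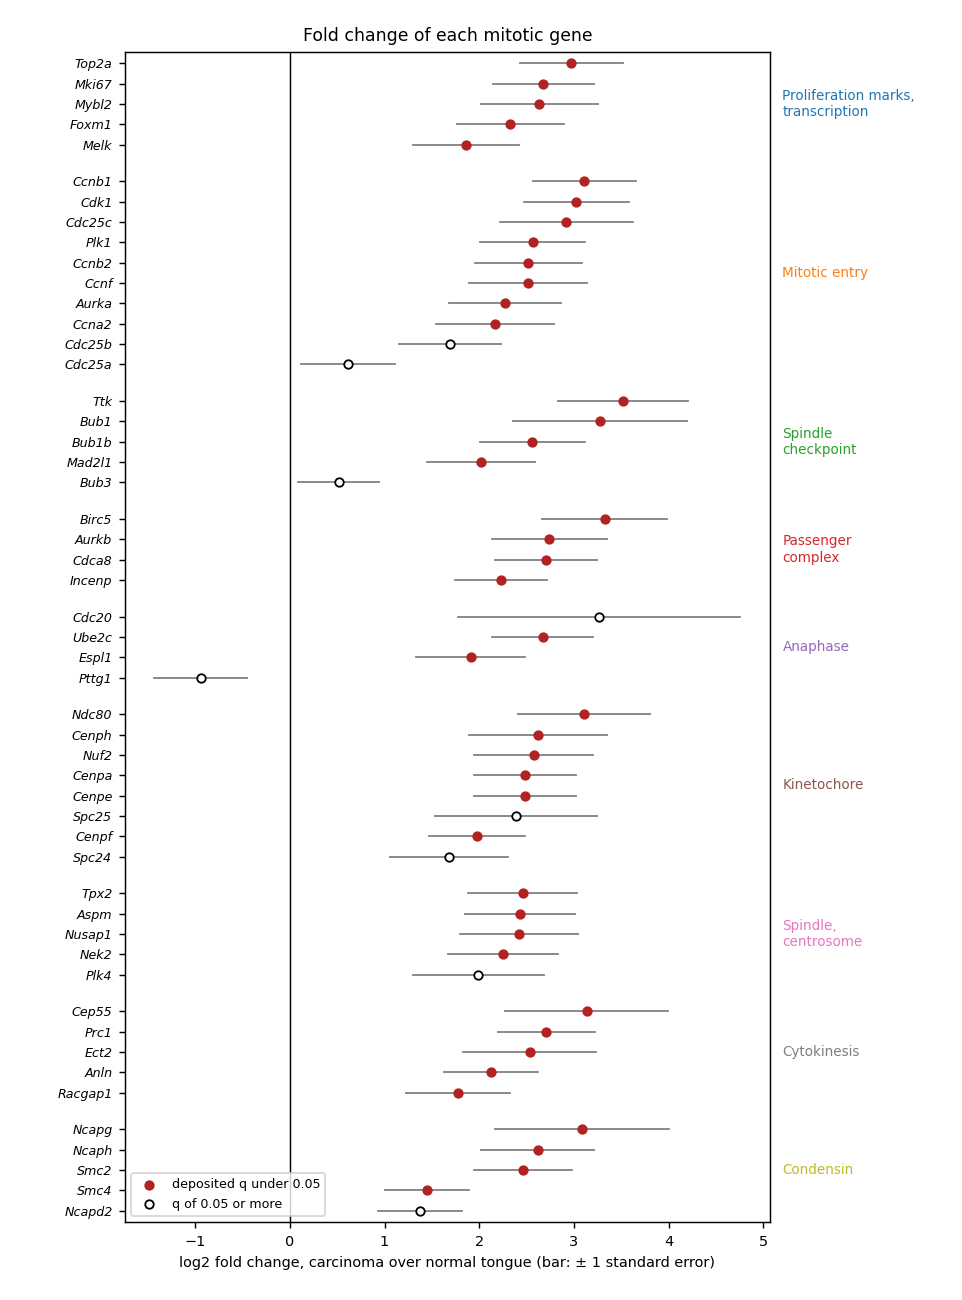
Log2 fold change of each of the 51 genes, carcinoma over normal tongue, with bars of ± 1 standard error derived from the deposited test statistic, grouped by function (filled where q is under 0.05, open otherwise). Between 2 and 3 lie 30 genes, and Pttg1, Bub3 and Cdc25a lie apart on the left.

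Among the 10 genes of mitotic entry, 8 rose and 2 phosphatases did not pass. Cdk1, the mitotic kinase, and its partner Ccnb1 (cyclin B1) rose alike in the authors' deposited table, Cdk1 from 1.45 to 11.8 FPKM (3.03 ± 0.55, q = 6.66e-06) and Ccnb1 from 2.17 to 18.8 FPKM (3.11 ± 0.54, q = 1.67e-06). The second B-type cyclin, Ccnb2, went from 2.63 to 15.1 FPKM (2.52 ± 0.57, q = 7.94e-04) and cyclin A2, Ccna2, which serves both S phase and mitosis, from 3.31 to 14.9 FPKM (2.17 ± 0.62, q = 0.0236). Ccnf, a cyclin that acts as a substrate adaptor of a ubiquitin ligase, rose 5.71-fold (2.51 ± 0.62, q = 0.00338). The kinases Plk1 and Aurka, which build the bipolar spindle, rose 5.91-fold (2.56 ± 0.56, q = 4.26e-04) and 4.83-fold (2.27 ± 0.59, q = 0.00777). The reference annotation lists pseudogenes of Ccnb1 and Ccnb2, and no source used here says how reads were assigned among copies.

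The 3 phosphatases that activate cyclin-dependent kinases were listed with unequal changes. Cdc25c, which acts on Cdk1 at the G2 to M transition, rose from 0.523 to 3.96 FPKM (2.92 ± 0.70, q = 0.00243) in the authors' deposited table. Cdc25b, the starter phosphatase of mitosis, was listed at 6.13 FPKM in normal tongue and 19.8 in carcinomas and missed the limit (1.69 ± 0.54, q = 0.0636). Cdc25a, which also acts at the G1 to S transition, was listed at 2.64 and 4.05 FPKM (0.62 ± 0.49, q = 1.00). The 95% interval of the Cdc25a log2 fold change, −0.35 to 1.58, lay close below the point estimate of Cdc25b and overlapped the Cdc25c interval of 1.54 to 4.30 only at its upper edge. The differences among the 3 were not tested.

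Of the 5 spindle checkpoint genes 4 rose. Ttk, the Mps1 kinase that starts checkpoint signalling at unattached kinetochores, had the largest deposited fold change of the 51 genes, from 0.413 to 4.74 FPKM (3.52 ± 0.69, q = 3.61e-05), or 11.5-fold. That rank depends on its low normal level, since with a pseudocount of 1 FPKM its log2 fold change was 2.02 and Birc5 led with 2.98. Bub1, a kinase that docks the checkpoint proteins, started from the lowest normal level of the set and went from 0.283 to 2.74 FPKM (3.28 ± 0.91, q = 0.0170). BubR1, encoded by Bub1b, rose 5.89-fold (2.56 ± 0.55, q = 3.74e-04) and Mad2l1, the subunit that captures Cdc20, 4.05-fold (2.02 ± 0.57, q = 0.0187) in the authors' deposited table. Bub3, the propeller protein that carries Bub1 and BubR1 to kinetochores, was listed at 20.8 FPKM in normal tongue and 29.8 in carcinomas and was not called (0.52 ± 0.43, q = 1.00). Its level was 73.5 times that of Bub1 in normal tongue and 10.9 times in carcinomas, on a scale per transcript length.

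All 4 subunits of the chromosomal passenger complex rose. This complex, in which the kinase Aurora B is held at centromeres by INCENP, survivin and borealin, corrects faulty microtubule attachments and later moves to the central spindle. Birc5, which encodes survivin, was the most changed, from 3.22 to 32.2 FPKM (3.32 ± 0.66, q = 5.96e-05). Aurkb went from 1.45 to 9.67 FPKM (2.74 ± 0.61, q = 5.69e-04), the borealin gene Cdca8 from 3.28 to 21.3 FPKM (2.70 ± 0.54, q = 5.63e-05) and the scaffold gene Incenp from 2.65 to 12.4 FPKM (2.23 ± 0.49, q = 4.55e-04). In the authors' deposited table the 4 subunits spanned a 2.26-fold range of levels in normal tongue and a 3.33-fold range in carcinomas.

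The genes that trigger anaphase were the least uniform group, with 2 of 4 called. Ube2c, the ubiquitin-conjugating enzyme that serves the anaphase-promoting complex, rose from 6.70 to 42.6 FPKM (2.67 ± 0.53, q = 6.05e-05), and Espl1, the protease separase, from 0.560 to 2.10 FPKM (1.91 ± 0.57, q = 0.0369). Cdc20, the activator of the anaphase-promoting complex that the checkpoint restrains, was listed at 3.41 FPKM in normal tongue and 32.9 in carcinomas, a 9.63-fold ratio, but its standard error of 1.49 was the largest of the 51 and the gene was not called (q = 0.433). In the table its locus is shared with Elovl1. Pttg1, which encodes securin, the inhibitor of separase, was the exception in direction. It was the most abundant of the 51 genes in both groups, at 95.5 FPKM in normal tongue and 49.7 in carcinomas in the authors' deposited table, and its negative fold change was not called (−0.94 ± 0.49, q = 0.623). The 95% interval of that change ran from −1.90 to 0.02, below the lower end of the interval of every called member.

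Kinetochore genes rose in 6 of 8 cases. Cenpa, the histone H3 variant that defines the centromere, was the most abundant of them and went from 3.79 to 21.2 FPKM (2.49 ± 0.54, q = 4.29e-04). Cenpe, a kinesin that moves chromosomes to the spindle equator, rose 5.58-fold (2.48 ± 0.54, q = 4.23e-04) and Cenpf, a large farnesylated protein of the outer kinetochore, 3.94-fold (1.98 ± 0.51, q = 0.00581) in the authors' deposited table. Cenph, of the constitutive centromere network, rose from 0.654 to 4.03 FPKM (2.62 ± 0.73, q = 0.0157). Its locus lies 2.84 kb from that of Ccnb1 on chromosome 13 in the table's own coordinates.

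The 4-subunit Ndc80 complex, the main microtubule coupler of the kinetochore, had 2 subunits called. Its microtubule-binding pair rose, Ndc80 from 0.487 to 4.18 FPKM (3.10 ± 0.70, q = 7.53e-04) and Nuf2 from 0.868 to 5.17 FPKM (2.57 ± 0.63, q = 0.00279). The inner pair had positive fold changes that did not pass, Spc25 at 2.39 ± 0.86 (q = 0.147) and Spc24 at 1.68 ± 0.62 (q = 0.176). In the authors' deposited table the 4 subunits covered a 4.26-fold range of levels in normal tongue, from Ndc80 up to Spc24, and a 1.59-fold range in carcinomas. The change in that range was not tested.

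Spindle and centrosome genes rose in 4 of 5 cases. Tpx2, which activates Aurora A on spindle microtubules, went from 1.49 to 8.23 FPKM (2.46 ± 0.58, q = 0.00152), and Nusap1, which bundles microtubules around chromosomes, from 1.31 to 7.04 FPKM (2.42 ± 0.62, q = 0.00593). Aspm, the spindle pole protein named for its role in microcephaly, had the lowest carcinoma level of the set, 1.74 FPKM, after 0.322 in normal tongue (2.43 ± 0.58, q = 0.00213). Nek2, a kinase that separates centrosomes, rose 4.76-fold (2.25 ± 0.58, q = 0.00666) in the authors' deposited table. Plk4, the kinase that starts centriole duplication, was listed at 1.06 FPKM in normal tongue and 4.23 in carcinomas and was not called (1.99 ± 0.69, q = 0.117).

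All 5 cytokinesis genes rose. Prc1, the microtubule cross-linker of the central spindle, went from 2.09 to 13.6 FPKM (2.71 ± 0.51, q = 1.70e-05). The pair of Racgap1 and Ect2, an activating protein and an exchange factor that position active RhoA at the division plane, rose 3.42-fold (1.77 ± 0.54, q = 0.0446) and 5.80-fold (2.54 ± 0.70, q = 0.0154) in the authors' deposited table. Anln (anillin), the scaffold of the contractile ring, went from 1.84 to 8.02 FPKM (2.13 ± 0.50, q = 0.00144). Cep55, which recruits the abscission machinery to the midbody, had the largest deposited fold change of the group, from 0.605 to 5.32 FPKM (3.14 ± 0.86, q = 0.0142), but with a pseudocount of 1 FPKM it stood at 1.98 and Prc1 at 2.24. The 5 genes spanned a 2.57-fold range of levels in carcinomas.

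The condensin group held the shared Smc arms and the subunits of condensin I, and 4 of these 5 rose. Smc2 and Smc4 are the paired ATPase arms of both condensins, and they were listed with unequal changes, Smc2 from 1.23 to 6.76 FPKM (2.46 ± 0.52, q = 2.22e-04) and Smc4 from 4.64 to 12.6 FPKM (1.45 ± 0.44, q = 0.0447). The subunits particular to condensin I were Ncaph, the kleisin that closes the ring, with a 6.14-fold rise (2.62 ± 0.60, q = 0.00103), Ncapg from 0.458 to 3.89 FPKM (3.09 ± 0.92, q = 0.0339), and Ncapd2, which was not called (1.38 ± 0.44, q = 0.0689). Levels of the 5 subunits spanned a 11.3-fold range in normal tongue and a 3.44-fold range in carcinomas in the authors' deposited table. The Smc4 row shares its locus with Mir15b and Mir16-2, Ncapg with Lcorl and Gm3414, and Ncapd2 with Scarna10. With Cdc20, Ccna2, Ccnf, Foxm1 and Nusap1, 8 of the 51 genes share a listed locus with another row, and no source used here says how reads were divided there.

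The calls closest to the limit were Racgap1 and Smc4 on the inside, at q = 0.0446 and 0.0447, and Cdc25b and Ncapd2 on the outside, at q = 0.0636 and 0.0689. Those 4 had log2 fold changes between 1.38 and 1.77, near the smallest change called anywhere in the authors' deposited table, 1.40. Of the 9 genes not called, 8 had positive fold changes, and 6 of them had a deposited p-value, before adjustment, under 0.05. A fold change that misses the limit at this precision does not show that the level was the same in the 2 groups. The 95% interval of the log2 fold change lay wholly above 1, a doubling, for 35 of the 51 genes. The share of all tested genes with such an interval was not taken.

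Other genes linked to cell division, in 6 lists that hold none of the 51, had a lower median fold change. That difference was not tested. These lists are broader than the mitotic apparatus and include E2F transcription factors, Rhoa and septins. The authors' deposited table calls 29 of these 113 genes higher and 0 lower, with a median log2 fold change of 0.93. Spindle and centrosome genes rose in 10 of 23 cases, led by the kinesins Kif18b (3.35 ± 0.67, q = 5.78e-05) and Kif2c (3.14 ± 0.64, q = 1.02e-04) and by the centriole assembly gene Stil (3.11 ± 0.68, q = 4.42e-04). Of 33 further kinetochore and centromere genes 8 rose, among them Sgol1 (shugoshin) (3.21 ± 0.70, q = 4.39e-04), the protector of centromeric cohesion, and Casc5 (2.83 ± 0.68, q = 0.00239), the platform for the Bub proteins. In the list of 14 further cytokinesis genes 4 rose. The most changed of those 4 were the kinesins Kif14 (2.88 ± 0.65, q = 9.42e-04), Kif4 (2.50 ± 0.59, q = 0.00178) and Kif23 (1.89 ± 0.51, q = 0.0123). The other was the Polo-like kinase Plk2 (1.65 ± 0.46, q = 0.0152), named after its value was seen.

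Of 15 genes of the anaphase-promoting complex, 0 were called in the authors' deposited table. These were 12 core subunits, the activator Fzr1, the ubiquitin-conjugating enzyme Ube2s and the inhibitor Fbxo5. Their median log2 fold change was 0.13. Over all tested genes 3.07% were called higher and 3.19% lower, and at such shares a list this short may well hold no call. The authors' test gave an unadjusted p under 0.05 for 1 of the 15, and 0 passed with the Benjamini-Hochberg adjustment. Fbxo5 (Emi1), which is itself periodic in the cycle, had the largest fold change of that list (1.54 ± 0.66, q = 0.338). Among 14 further condensin and cohesin genes the 3 that rose were Cdca5 (sororin) (2.83 ± 0.67, q = 0.00170), Esco2 (2.39 ± 0.67, q = 0.0162) and the condensin II subunit Ncapg2 (2.18 ± 0.53, q = 0.00312). The condensin II subunits Ncapd3 and Ncaph2, named after their values were seen, had log2 fold changes of 0.47 ± 0.46 and 0.09 ± 0.50 and were not called. The 5 cohesin ring and Stag genes, singled out after their values were seen, had a median of 0.28. None was called, which is also near the shares over all tested genes. A list of 14 genes held brakes of mitotic entry and other cell cycle regulators, among them E2F transcription factors and MuvB subunits. Of these 14 genes 4 rose, led by the repressor E2f7 (3.64 ± 0.68, q = 1.08e-05). Next came Mastl (Greatwall) (2.82 ± 0.67, q = 0.00205), which restrains the phosphatase that opposes Cdk1, and the Cdk1 accessory subunit Cks2 (2.49 ± 0.57, q = 9.00e-04). The MuvB subunits Lin9, Lin37, Lin52 and Lin54, also named after their values were seen, had log2 fold changes of 0.48 ± 0.69, 0.44 ± 0.52, −0.85 ± 0.51 and 0.79 ± 0.47 and were not called.

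Genes of the earlier cell cycle phases had lower medians than the 51 mitotic genes. Of 34 DNA replication genes 9 rose and 0 fell. All 34 had positive fold changes in the authors' deposited table, and their median on the log2 scale was 1.29. That was above the median of 0.93 for the 113 other cell division genes described above. The most changed were Mcm10 (2.97 ± 0.70, q = 0.00159) and Orc1 (2.86 ± 0.83, q = 0.0247), which load and start the replicative helicase, and thymidine kinase Tk1 (2.38 ± 0.55, q = 0.00120). Of 8 G1 cyclins and kinases 2 rose, cyclin E1, Ccne1 (2.92 ± 0.63, q = 3.64e-04), and Cdk6 (2.58 ± 0.72, q = 0.0163), with a median of 0.55. The differences among these lists, the 113 other genes and the 51 mitotic genes were not tested.

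**Figure D5:**
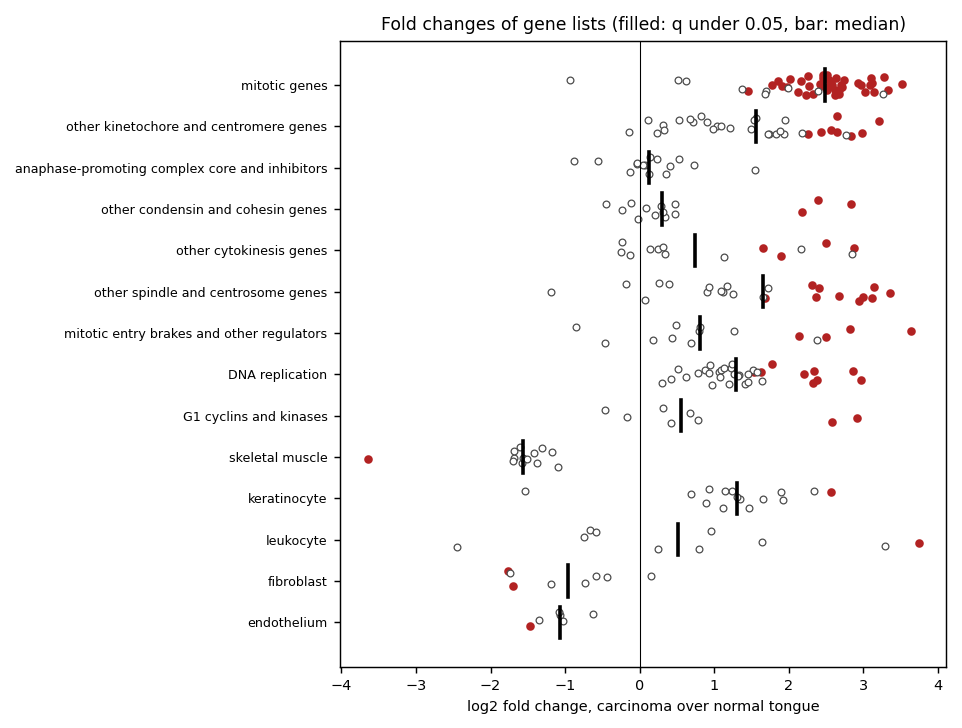
Log2 fold change of each tested gene, carcinoma over normal tongue, for the 51 mitotic genes and for lists of other cell division genes and cell type markers (filled where q is under 0.05, open otherwise, black bar at the median, vertical scatter for display only). The median is 2.49 for the mitotic genes, 1.29 for DNA replication and −1.57 for skeletal muscle.

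Cell type markers were also listed at different levels in the groups. Tested keratinocyte markers had positive fold changes in 14 of 15 cases, 1 called, with a median of 1.30 and a summed level of 2863 FPKM in normal tongue and 7305 in carcinomas in the authors' deposited table. Krt14 could not be compared because the table marks it HIDATA with no test and lists 0 for carcinomas, and the called marker was the desmosomal cadherin Dsg3 (2.57 ± 0.75, q = 0.0278). All 13 tested skeletal muscle markers had negative fold changes, 1 called (Myh2, −3.65 ± 0.67, q = 7.74e-06), with a median of −1.57 and sums of 26323 and 9917 FPKM. For 6 further muscle markers, Acta1, Ckm, Myh1, Myh4, Tnnt3 and Atp2a1, the same mark is given and normal tongue is listed at 0.

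Other cell types were listed with smaller or opposite shifts. Leukocyte markers had a median of 0.52, with 1 of 10 called, the T-cell gene Cd3g (3.74 ± 0.97, q = 0.00697), and sums of 155 and 117 FPKM. Most of both sums was Lyz2, listed at 129 FPKM in normal tongue and 76.7 in carcinomas and not called. Of the 10 fold changes, 6 were positive and 4 negative. Fibroblast markers had a median of −0.96, with Dpt (−1.76 ± 0.46, q = 0.00863) and Lum (−1.70 ± 0.46, q = 0.0115) called of 8, and sums of 713 and 274 FPKM. Endothelial markers had a median of −1.07, with Cdh5 (−1.47 ± 0.43, q = 0.0279) called of 6, and sums of 89.0 and 42.2 FPKM in the authors' deposited table. The part of these shifts in tissue makeup in the mitotic fold changes was not tested.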

How the data were processed

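RNA sequencing of 5 normal tongues and 3 tongue carcinomas is represented by a single table of the authors' own comparison. Per the file headers it holds 1 FPKM value per gene and group, with the log2 fold change, its test statistic and call, and the p-value and q-value. Per the labels' protocols, libraries were made from poly(A) RNA with the TruSeq workflow. Per the submitters' processing notes, GSNAP 2011.11.17, edgeR and the human build GRCh37 were named with no role. Not given in the sources used here are the program behind the table, its read assignment and its mouse build. Of 20601 genes compared with RefSeq of GRCm38.p6, 1.02% had the same start, so positions in the table were not joined to those of the promoters.

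In all 15686 tested rows where it is finite, the deposited log2 value matches the one computed from both FPKM values within 0.001. The deposited statistic is a score whose two-sided normal p-value equals the deposited p-value, within a relative tolerance of 0.01, in all 15649 rows checked. Standard errors were computed as the fold change over that statistic, and 95% intervals from the normal distribution. No new test between groups could be made, since no value per sample is given. The script was tested on simulated data. Genes were named by function group, and of each other list the 3 called genes with the largest change, or with no call the largest fold at 1 FPKM or more. A gene that this rule picks in the kinetochore list is not reported here. Members and lists were chosen with earlier results of these data known. Symbols not in the table were matched by RefSeq accession. Analyses used Python 3.11.15 with pandas 2.3.3 and SciPy 1.17.1.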

Additional observations from a re-analysis of the deposited data

How the results depend on the processing

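The count of 42 mitotic genes called higher stayed within 1.5 times under each alternative tried: 31 at a deposited q under 0.01, 45 with the Benjamini-Hochberg adjustment over all tested rows, 37 with at least a 4-fold change, 42 when at least 1 FPKM was required in the higher group, and 43 with Bora, added after seeing the data. No gene was called lower at q under 0.05, at q under 0.01 or with the Benjamini-Hochberg adjustment, and at an unadjusted p-value none of the 51 was both lower and under 0.05. The Benjamini-Hochberg adjustment added Cdc25b, Plk4 and Ncapd2. The median log2 fold change of 2.49 moved to 1.75 with a pseudocount of 1 FPKM and to 2.38 with 0.1 FPKM, by construction for genes of low level, was 2.53 when centred on all tested rows, and every member kept its sign under centring and under a pseudocount of 1 FPKM. The pseudocount of 1 FPKM also moved the medians of 8 of the 13 other lists. With it the median was 0.62 in place of 0.93 for the 113 other cell division genes and 0.34 in place of 0.52 for leukocytes. For DNA replication it was 1.06 in place of 1.29, so nearer to that of the 51 genes. At q under 0.01 the counts of 8 of the 13 lists stayed within 1.5 times and 5 did not, with 4 of 8 calls left among further kinetochore genes, 2 of 4 for further cytokinesis (2 also with the 4-fold rule), 4 of 9 for DNA replication, 1 of 2 for G1 genes and 0 of 1 for keratinocytes, while the Benjamini-Hochberg adjustment gave 2 keratinocyte and 3 leukocyte calls. Leaving out a replicate could not be run, because the table has a single value per group. No paired analysis was possible because the table has no value per sample. Library depth is unknown, and a median standard error of 0.57 for these genes limits what could be called.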
